A study of Mus musculus with 20 samples.

Results

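The effect of pregnancy on visceral fat was examined in mice that had never been given a high fat diet. Of the 20 arrays of the series, 10 were used: 5 of control pregnant mice, at E18.5, and 5 of control non pregnant mice, taken by the pregnancy status and diet in the array titles. All were C57BL/6J females on the low fat control diet (Research diets), which the labels give as 10% fat, and each array holds the RNA of 1 mouse. The labels also give E18.5 as the age of the non pregnant mice, so their age at sampling is not known from them. The study fed mice a 58% fat diet (HF) in its other arm, 5 HF pregnant and 5 HF non pregnant, to ask how obesity alters the response of fat to gestation. The labels name no transgene or deletion. The comparison has neither earlier gestation nor mice sampled after birth, so it sets late pregnancy against no pregnancy.

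White fat stores triglyceride made from fatty acids that adipocytes take up from lipoproteins or synthesise from glucose, and it secretes adipokines such as leptin and adiponectin. In pregnancy it is exposed to placental lactogens and prolactin, which signal through JAK2 and STAT5, and to rising estrogen, progesterone and glucocorticoid. Early gestation favours storage, while near term maternal tissues become insulin resistant and fat releases more fatty acid.

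The tissue carried the RNA of fat, with Adipoq between 14.00 and 14.59 in the pregnant and between 14.42 and 14.53 in the non pregnant mice on the log2 intensity scale. Of 17 placenta and decidua markers only Hand1 passed the filter on low values, and of 12 mammary epithelium markers only Epcam. No listed placental lactogen or casein passed it. The mean log2 deviation of 4 pancreatic acinar genes was 4.86 in control pregnant mouse 2 and 4.47 in control non pregnant mouse 4, against at most 1.05 in the other 8 mice. Lymphoid RNA varied among mice of both groups, and B cell markers deviated by -2.71 to 1.51 in the pregnant and by -2.12 to 0.633 in the non pregnant mice. The study names the depot as mesenteric and dissected visible lymph nodes away. In bulk tissue, fewer cells of a type and less RNA per cell cannot be told apart.

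1 library stood apart in the comparison itself. Each control diet array was left out of the fit in turn, the 50 genes of smallest p were taken from the remaining arrays, and the left-out array was placed between the mean of the other non pregnant mice, set at 0, and that of the other pregnant mice, set at 1. The library labelled control non pregnant 3 lay at a median of 1.09 and was nearer the pregnant mean in 50 of 50 genes. The other non pregnant libraries lay at 0.302, 0.194, -0.0329 and 0.728, and the 5 pregnant libraries, at 0.182 to 0.672, did not reach the pregnant mean either. Control non pregnant mouse 5, at 0.728, was nearer the pregnant mean in 37 of 50 genes and lay above every pregnant library. This position thus did not sort the remaining libraries by their labels. With 20 or 100 genes control non pregnant mouse 3 lay at 1.18 and 1.08. On the 50 genes of smallest p for pregnancy on the HF diet it did not stand apart, with a median deviation of 0.064 towards the HF pregnant side, in a range of -0.36 to 0.21 over the 10 mice. The pregnant mice lay at -0.0081 to 0.21 and non pregnant mice 1, 2, 4 and 5 at 0.087, -0.045, -0.36 and -0.32. These ranges overlap, so this score cannot place control non pregnant mouse 3 in either group. Results are therefore given with all 10 arrays and, where it changes them, without this library. Why it lay there was not tested, and its label was kept. Whether this mouse was non pregnant, as labelled, cannot be told from these values, and a difference given without it rests on 4 non pregnant mice.

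**Figure D1:**
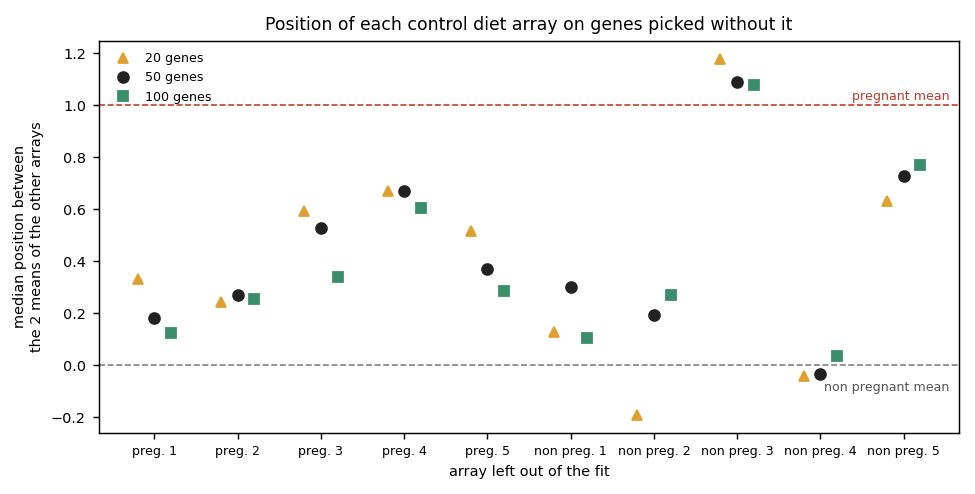
Median position of each control diet array (y axis, 0 = mean of the other non pregnant mice, 1 = mean of the other pregnant mice, dashed lines) on the 20, 50 or 100 genes of smallest limma p in the fit without that array (x axis). Control non pregnant mouse 3 lies at 1.18, 1.09 and 1.08, above every other array, and no pregnant array reaches 1.

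With all 10 arrays, no gene passed the test. By limma with Benjamini-Hochberg adjustment, 0 of 19802 probe sets (0.0%) had an adjusted p below 0.05, and the smallest adjusted p was 0.963. At an unadjusted p below 0.05 there were 575 probe sets, or 149 genes higher in control pregnant mice (1.41% of 10603) and 153 lower (1.44%). Together these were 2.85% of genes, fewer than that threshold gives on average when no gene differs. The study's methods name a rank product p below 0.05, a 1.5-fold change and expression above 100. On the 19802 kept probe sets, that p without adjustment and that fold change gave 194 higher and 322 lower. An unadjusted limma p below 0.05 with the same fold change gave 45 and 51. The rank product was read at 0.05 in each direction, against values shuffled over probe sets. No count of groups without a difference was made for it. The 5 pregnant mice lay wholly above the 5 non pregnant mice in 10 genes (0.0943%) and wholly below in 11 (0.104%). A random division of the mice into 2 groups of 5 separates a larger share on average, so a lack of overlap only describes a gene. The median size of the log2 change was 0.102, against a median standard error of 0.14. For 70.1% of genes the 95% interval excluded a change of 1.5-fold or more in either direction, and for 89.4% a change of 2-fold or more, while a smaller difference could not be told from none. Changes below are log2 differences, control pregnant minus control non pregnant, ± the standard error of limma, and every adjusted p with all arrays was 0.963 or higher.

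On the control diet the pregnant mice varied more among themselves, a difference that was not tested. The median SD of a gene was 0.265 in control pregnant and 0.171 in the control non pregnant mice, and 466 against 218 genes had an SD above 1. The HF groups went the other way, with a median SD of 0.152 in HF pregnant and 0.239 in HF non pregnant mice. There 161 against 229 genes had an SD above 1. In a principal component analysis of the deviations of control diet mice from their group means the first component held 53.7% of the variance. Its high end was led by Glycam1, a ligand of high endothelial venules in lymph nodes, and by immunoglobulin and T cell receptor genes. Control pregnant mice 2 and 4 lay at the high end, and mice 1 and 3 at the low end. Glycam1 itself was 4.88, 12.94, 10.24, 13.09 and 12.32 in control pregnant mice 1 to 5 and 7.80, 4.11, 11.42, 11.48 and 11.73 in control non pregnant mice 1 to 5. Both groups thus held mice with and without a strong lymph node signal.

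Without control non pregnant mouse 3, still no gene passed an adjusted p of 0.05. The counts at an unadjusted p below 0.05 were then 289 genes higher (2.73%) and 435 lower (4.1%), and groups did not overlap in 80 genes (0.755%) and 68 genes (0.641%). The shares without overlap were again no larger than a random division of the mice gives on average. The smallest adjusted p by limma was 0.0678, and 5 genes lay below 0.1, all higher in pregnancy: Hs3st3b1, Mertk, Adam12, Socs2 and Fkbp5. This library was singled out after its values were seen, so these p values are descriptions.

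The genes closest to the hormones of pregnancy were the feedback inhibitors of JAK2 and STAT5 signalling. Socs2, which binds the growth hormone receptor and dampens its signal, was 11.11, 9.99, 10.70, 10.74 and 11.20 in control pregnant mice 1 to 5 and 9.70, 9.25, 10.83, 9.71 and 9.22 in control non pregnant mice. Every pregnant mouse lay above the non pregnant mice except for mouse 3 of the non pregnant group. The difference was 1.004 ± 0.27 (95% interval 0.43 to 1.57) with all arrays and 1.27 ± 0.22 (limma adjusted p = 0.0801) without that mouse. All 5 probe sets of Socs2 that passed the filter were higher in control pregnant mice, by 0.34 to 1.18.

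Cish, another STAT5 target that inhibits cytokine receptors, was 8.68, 8.004, 8.18, 8.27 and 8.67 in control pregnant mice and 7.502, 7.68, 8.65, 7.40 and 7.41 in control non pregnant mice. The groups overlapped only through control non pregnant mouse 3, and the difference was 0.63 ± 0.30 with it (95% interval 0.011 to 1.25) and 0.86 ± 0.28 without it. Socs3, the inhibitor induced by leptin and interleukin 6 through STAT3, was 8.54, 10.02, 9.41, 9.86 and 9.40 against 8.41, 8.72, 9.38, 8.44 and 8.71. Here control pregnant mouse 1 lay among the non pregnant mice, and the difference was 0.715 ± 0.24 (95% interval 0.20 to 1.23). These 3 were the members with an unadjusted p below 0.05 among 12 measured genes of JAK2 and STAT5 signalling, where 1.41% of all genes were higher at that level. This list and those below were chosen with earlier results of these data known, so such counts only describe them. Of the 12, 9 were higher, against 49.5% of all genes, with a median of 0.131 against -0.00186 over all genes. That median shrank to 0.0414 without control pregnant mouse 2. The kinase and the factors themselves differed little, with no member apart from the 3 inhibitors differing by more than 0.26.

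STAT dimers bind palindromes of the form TTCNNNGAA, which read the same on both strands. Of the 2 inhibitors with a promoter in RefSeq (GRCm38.p6), the 250 bases before the start of Socs3 and 30 bases across the start of Cish are shown, with matches in capitals. Socs3 lies on the minus strand, chr11:117969367-117969616, and holds 1 match, which begins 154 bases before the start. The stretch of Cish, chr9:107296649-107296678 on the plus strand, holds 2 matches, the first of which begins at base 1 of the transcript, and the 250 bases before the start hold none.
Socs3: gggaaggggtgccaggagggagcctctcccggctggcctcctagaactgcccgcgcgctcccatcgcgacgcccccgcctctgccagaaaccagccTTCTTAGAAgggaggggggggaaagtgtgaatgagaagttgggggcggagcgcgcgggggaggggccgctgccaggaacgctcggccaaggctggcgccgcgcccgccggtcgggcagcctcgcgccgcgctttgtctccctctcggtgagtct
Cish: ccgcccagttTTCCTGGAAagTTCTTGGAA
A match was present in the 250 upstream bases of 7.02% of the 32851 promoters of the table and in 8.3% when the 50 bases after the start were included. A match is a description of the sequence and not a measured binding site.

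Receptors for these hormones were measured less completely. Prlr and Pgr, the prolactin and progesterone receptors, did not pass the filter. Ghr, the growth hormone receptor, differed by 0.02 ± 0.25, and Esr1, estrogen receptor alpha, by -0.15 ± 0.34, with a 95% interval of -0.86 to 0.57. Esr1 was 11.06, 9.06, 10.79, 9.72 and 10.43 in control pregnant mice and 10.11 to 10.51 in control non pregnant mice, so that pregnant mice lay on both sides of the non pregnant range. Oxtr, the oxytocin receptor, was 10.99, 9.35, 10.72, 9.26 and 9.52 in control pregnant mice and 7.39, 7.79, 10.36, 8.89 and 9.68 in control non pregnant mice. Its difference was 1.15 ± 0.58, with overlapping groups (95% interval -0.079 to 2.37). The other probe set of Oxtr gave 0.28 ± 0.18. Of the 13 receptors measured, 3 were higher and 10 lower, and none had an unadjusted p below 0.05. Without control non pregnant mouse 3, Oxtr (1.53) and the glucocorticoid receptor Nr3c1 (-0.25) had one.

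In the IGF axis Igfbp3, which carries IGF1 and extends its half-life in plasma, was 8.95, 8.66, 8.99, 9.29 and 8.69 in control pregnant mice and 8.04, 7.66, 9.13, 7.59 and 7.85 in control non pregnant mice. The groups were apart but for control non pregnant mouse 3, and the difference was 0.86 ± 0.27 with it (95% interval 0.28 to 1.44) and 1.13 ± 0.23 without it (limma adjusted p = 0.235). Both measured probe sets of Igfbp3 gave the same direction, 0.86 and 0.74. Igf1 itself differed by 0.26 ± 0.29, and Igf2r, which clears IGF2, by -0.23 ± 0.10 (95% interval -0.44 to -0.015). The other probe set of Igf2r gave -0.07 ± 0.10. The 11 measured members had a median of -0.144, which turned to 0.166 without control pregnant mouse 2.

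Fkbp5, a chaperone of the glucocorticoid receptor whose transcription glucocorticoid induces, was 9.62, 8.82, 9.42, 9.72 and 9.49 in control pregnant mice and 8.41, 8.01, 9.79, 8.24 and 8.46 in control non pregnant mice. Control non pregnant mouse 3 was the highest of all 10, and the other 4 lay below every pregnant mouse. The difference was 0.83 ± 0.27 (95% interval 0.26 to 1.40) and, without that mouse, 1.13 ± 0.20 (limma adjusted p = 0.0801). Of 14 measured genes that respond to glucocorticoid, 9 were higher and 5 lower, and with all arrays Fkbp5 alone had an unadjusted p below 0.05. The list members of next smallest p, Sgk1, Zbtb16 and Angptl4, differed by 0.34 ± 0.17, 0.45 ± 0.36 and -0.22 ± 0.27. Without control non pregnant mouse 3 the list held 2 higher members at an unadjusted limma p below 0.05, Fkbp5 and Sgk1 (0.42 ± 0.17). Tsc22d3, Dusp1 and Per1, 3 further targets of the receptor, differed by 0.01, -0.00494 and -0.07 with all arrays.

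**Figure D2:**
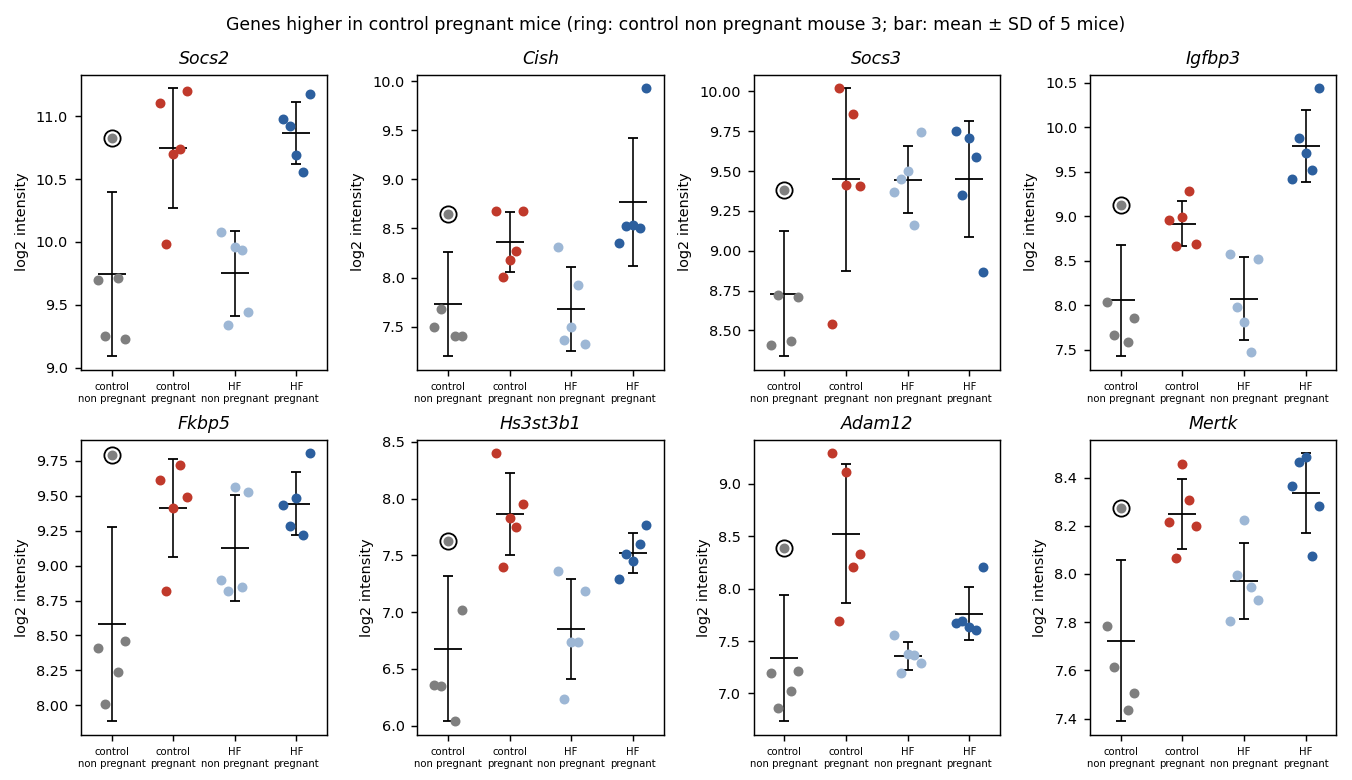
Log2 intensity (y axis) of 8 genes in each mouse of the 4 groups (x axis), with the mean and SD of 5 mice and a ring around control non pregnant mouse 3. In 7 of the 8 panels, all but Socs3, the ringed mouse is what joins the 2 control groups; the other control non pregnant mice lie below every control pregnant mouse.

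The genes of smallest p in either direction, 12 each, were mixed in function. Hs3st3b1, a sulfotransferase that modifies heparan sulfate, was 8.40, 7.40, 7.83, 7.75 and 7.95 in control pregnant mice and 6.36, 6.35, 7.63, 6.04 and 7.02 in control non pregnant mice. Its difference of 1.19 ± 0.26 had the smallest p of all genes (95% interval 0.64 to 1.74; limma adjusted p = 0.963) and was 1.43 ± 0.23 without control non pregnant mouse 3 (limma adjusted p = 0.0678). Adam12, a metalloprotease that cleaves IGF binding proteins and is made by preadipocytes, differed by 1.19 ± 0.28, and by 1.45 ± 0.24 without that mouse (limma adjusted p = 0.0711). Mertk, the receptor with which macrophages take up apoptotic cells, differed by 0.53 ± 0.13, and by 0.66 ± 0.11 without it (limma adjusted p = 0.0678). Other genes of smallest p on the higher side were Grrp1 (0.47), Npl, a lyase of sialic acid (0.65), Ifngr1, the ligand-binding chain of the interferon gamma receptor (0.35), Spata5 (0.31), Nifk (0.24) and Aff1 (0.22). Spata5 was the 1 gene among the 12 whose groups did not overlap with all arrays, at 7.62 to 7.75 against 7.03 to 7.51.

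A few genes outside these lists are named because their change was at least 2-fold with an unadjusted p below 0.05, a choice made after their values were seen. They were Dusp4, a phosphatase of ERK (1.01 ± 0.45), Mmd2 (1.26 ± 0.50) and Ttpa, the transfer protein of alpha-tocopherol (1.34 ± 0.52). Mmd2 was 9.63, 7.05, 8.23, 7.30 and 7.54 against 6.07, 6.02, 8.75, 6.36 and 6.25, so control non pregnant mouse 3 lay above 4 of the 5 pregnant mice. In all, 21 genes were higher by at least 1 on the log2 scale and 23 lower, and 9 of these 44 had an unadjusted p below 0.05. Alox15, a lipoxygenase of resident peritoneal macrophages, was the 1 lower gene of the 9 outside the lists, at -1.003 ± 0.43.

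Genes of protein folding in the endoplasmic reticulum were on the higher side in small steps. Of 22 measured, 18 were higher and 4 lower, with a median of 0.0986, against 49.5% higher and a median of -0.00186 over all genes. An unadjusted p below 0.05 was found for 3 of them, all higher, where 1.41% of all genes were higher at that level. Xbp1, a transcription factor of the unfolded protein response that also marks secretory cells, was 12.70, 12.30, 12.64, 12.38 and 12.61 in control pregnant mice and 12.45, 12.17, 12.38, 12.02 and 12.06 in control non pregnant mice. Its difference of 0.31 ± 0.10 (95% interval 0.11 to 0.51) was repeated by all 4 of its probe sets, at 0.29 to 0.33. The other 2 were Pdia4, a disulfide isomerase (0.25 ± 0.11), and Atf4, the factor of the integrated stress response (0.18 ± 0.08). The mean deviation of the list was -0.116 to 0.0612 in control pregnant and -0.244 to -0.0530 in the control non pregnant mice. Selenos, a selenoprotein of the same compartment that is not in the list and was named after its values were seen, was 10.99 to 11.04 in control pregnant and 10.74 to 10.94 in the control non pregnant mice, without overlap (0.17 ± 0.06). Plasma cells are also rich in these transcripts, and Jchain, which they use to join immunoglobulin, differed by 1.52 ± 0.85, with 8.98, 12.98, 11.22, 13.24 and 12.35 against 9.11, 7.76, 11.41, 10.91 and 12. The part of plasma cells in the values of Xbp1 was not tested.

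On the lower side, 2 of the clearest genes belong to vessel and serosal surfaces. Selp, P-selectin, by which endothelium and platelets catch leukocytes, was 7.05, 6.86, 7.28, 6.94 and 7.06 in control pregnant mice and 7.94, 8.21, 8.08, 7.47 and 7.62 in control non pregnant mice, without overlap (-0.83 ± 0.22, 95% interval -1.29 to -0.36). Prg4, lubricin, a lubricant of joints and of serosa, was 8.05, 7.76, 8.55, 8.66 and 8.42 against 9.48, 9.95, 10.03, 9.11 and 8.97, again without overlap (-1.22 ± 0.36, 95% interval -1.98 to -0.46). Control non pregnant mouse 3 lay with its own group in both. Mesothelial markers, which cover the cells of the serosa, had 10 of 13 members lower with a median of -0.209 and none at an unadjusted p below 0.05. That median ranged from -0.377 to 0.172 and kept its sign in 20 of 23 alternatives. Ctnna1, alpha-catenin of adherens junctions, was lower without overlap as well (-0.36 ± 0.11). The other probe sets of Ctnna1 gave -0.37 and -0.07.

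Rasl12, a small GTPase, was 7.76, 7.13, 7.62, 6.73 and 6.61 against 8.46, 8.28, 7.58, 8.97 and 8.01 (-1.09 ± 0.30, 95% interval -1.72 to -0.47), and control non pregnant mouse 3 lay among the pregnant mice. Ccn2, the connective tissue growth factor that responds to TGF-beta and YAP, differed by -0.71 ± 0.23. Cygb, the globin of stellate cells and fibroblasts, differed by -0.42 ± 0.13, and Acot11, a thioesterase of acyl-CoA, by -0.75 ± 0.25. The remaining genes of the 12 were Itpk1 (-0.47), Limch1 (-0.51), Gm1673 (-0.20), Hspa4l (-0.46) and Dipk1b (-0.98).

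Adipokines and secreted factors of fat stood lower in 13 of 17 measured members, with a median of -0.246, and 4 had an unadjusted p below 0.05, all lower, where 1.44% of genes did so. The median shrank to -0.034 without control pregnant mouse 2. Rarres2, chemerin, which attracts leukocytes and acts on adipocytes, was 10.96, 10.63, 11.17, 11.39 and 11.46 in control pregnant mice and 12.04, 12.74, 10.87, 11.83 and 11.75 in control non pregnant mice. All but mouse 3 of the non pregnant group lay above the pregnant mice, and the difference was -0.72 ± 0.28 with it and -0.96 ± 0.25 without it (limma adjusted p = 0.583). Rbp4, the carrier of retinol, was 12.34, 11.72, 12.34, 11 and 11.65 against 12.15, 12.58, 12.07, 12.69 and 12.70 (-0.63 ± 0.29, 95% interval -1.24 to -0.025). C1qtnf9, a paralogue of adiponectin, differed by -0.66 ± 0.29 and Retnla, a product of alternatively activated macrophages, by -0.51 ± 0.22. Leptin and adiponectin, the best known of them, were not in this group. Lep ranged from 8.32 to 10.90 in control pregnant and from 9.39 to 11.25 in control non pregnant mice (-0.25 ± 0.60), an interval of -1.50 to 1.01 that leaves a large change in either direction possible. Adipoq differed by -0.11 ± 0.12, with an interval of -0.37 to 0.15.

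**Figure D3:**
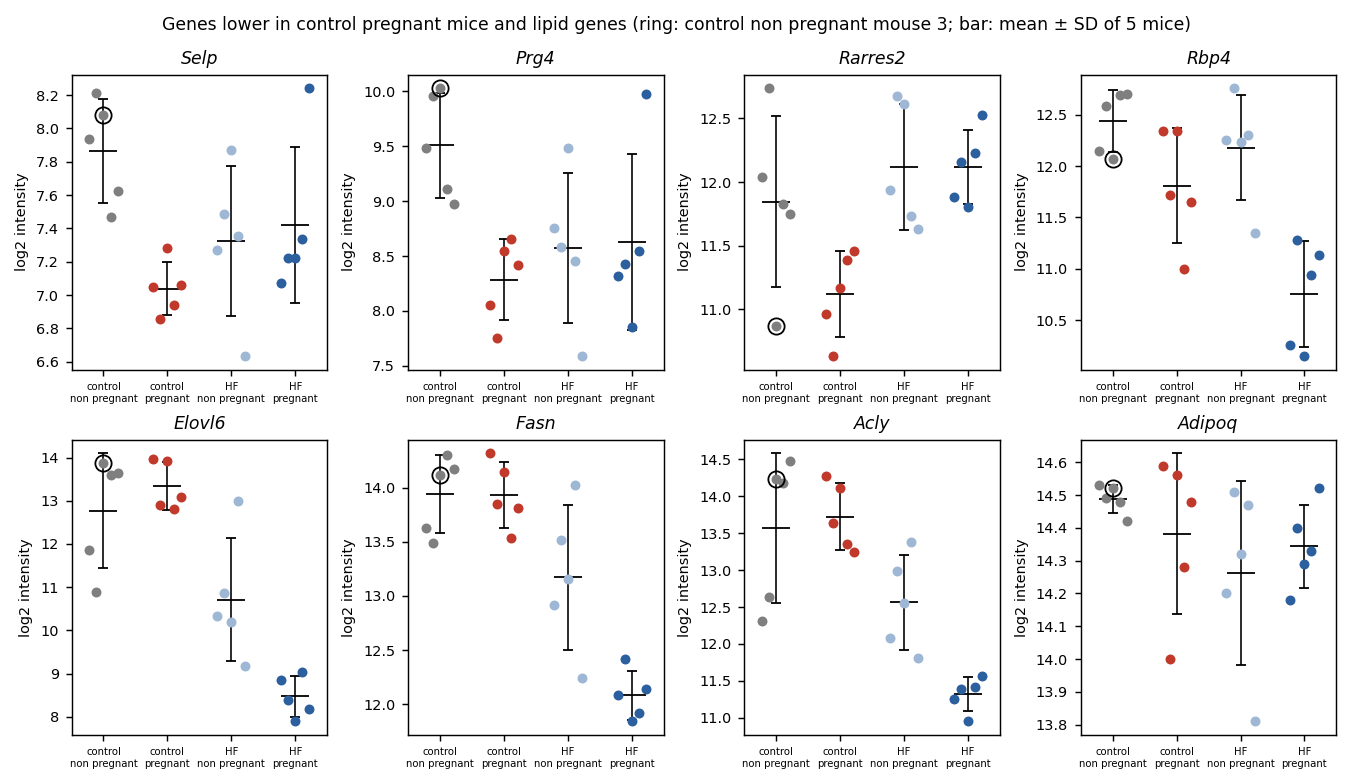
Log2 intensity (y axis) of 4 genes lower in control pregnant mice, 3 genes of fatty acid synthesis and Adipoq in each mouse of the 4 groups (x axis), with the mean and SD of 5 mice and a ring around control non pregnant mouse 3. Selp and Prg4 do not overlap between the control groups, and among the control diet mice Elovl6 and Acly are lowest in control non pregnant mice 1 and 2.

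Fatty acid synthesis showed no shift on the control diet. Of 22 genes measured, 10 were higher and 12 lower, the median was -0.0172 and none had an unadjusted p below 0.05. Fasn, fatty acid synthase, was 14.32, 13.85, 14.15, 13.54 and 13.81 in control pregnant mice and 13.63, 13.49, 14.12, 14.30 and 14.17 in control non pregnant mice (-0.01 ± 0.26). Its 95% interval of -0.54 to 0.53 excluded a 2-fold change. Scd1, the delta-9 desaturase, was within 14.71 to 14.87 in all 10 mice, near the top of the scale, where an array may compress differences.

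The spread was between mice of the same group. Elovl6, the elongase of palmitate, was 11.86, 10.89, 13.87, 13.60 and 13.65 in control non pregnant mice 1 to 5 and 13.96, 12.91, 13.93, 12.82 and 13.08 in control pregnant mice. Control non pregnant mice 1 and 2 thus lay below the other 8, and the difference of 0.57 ± 0.62 carried an interval of -0.72 to 1.86. Acly, which makes cytosolic acetyl-CoA, was 12.31 and 12.63 in the same 2 mice and 13.25 to 14.48 in the other 8, and Me1, the malic enzyme that supplies NADPH, 12.29 and 12.46 against 12.94 to 14.08. The mean deviation of the list was 0.00387 and -0.00122 in these 2 mice and 0.865 to 1.03 in the other 3 of the group, and the control pregnant mice spanned 0.0911 to 1.10.

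Storage and release of lipid were likewise not separated. Dgat2, the last enzyme of triglyceride synthesis, differed by -0.45 ± 0.29, and Lpl, which frees fatty acids from lipoproteins, by -0.17 ± 0.14. Pnpla2 and Lipe, the triglyceride and hormone-sensitive lipases, differed by 0.05 ± 0.31 and -0.27 ± 0.32. In lipolysis 11 of 15 members were lower with a median of -0.119, and Adcy3, an adenylyl cyclase that passes on the adrenergic signal, was the 1 member with an unadjusted p below 0.05 (-0.39 ± 0.16). In fatty acid oxidation 17 of 20 were lower with a median of -0.0907, and Ppargc1a, the coactivator of mitochondrial genes, was the 1 with an unadjusted p below 0.05 (-0.67 ± 0.32). Without control pregnant mouse 2 the medians of lipolysis and fatty acid oxidation were -0.0333 and -0.00571. The respiratory chain, with 31 genes and a median of 0.00336, showed no direction. Pck1, the enzyme of glyceroneogenesis, differed by -0.10 ± 0.27. In glucose uptake Pfkp, a phosphofructokinase, differed by -0.28 ± 0.12.

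In insulin signalling 1 member was on each side at an unadjusted p below 0.05. Foxo1, the factor that insulin excludes from the nucleus, was 10.04 to 10.28 in control pregnant mice and 9.72, 9.97, 10.18, 9.68 and 9.72 in control non pregnant mice (0.30 ± 0.11). Akt2, the kinase through which insulin drives glucose uptake in fat, was 9.99, 9.32, 9.89, 9.18 and 9.28 against 10.15, 10.04, 9.78, 9.93 and 9.93 (-0.43 ± 0.18). The other probe sets of Akt2, at -0.38 and -0.21, did not reach an unadjusted limma p below 0.05. The other 18 members gave no such p, and the median was -0.0357. Among 14 genes of retinol transport and retinoids, 10 were lower, with Rbp4 and Rarb, a retinoic acid receptor (-0.77 ± 0.28), at an unadjusted p below 0.05. Among 27 antioxidant enzymes Hmox1, heme oxygenase, was higher (0.50 ± 0.21) and Gstm1, a glutathione transferase, lower (-0.40 ± 0.17) at that level.

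Of 31 matrix genes measured, 25 were lower and 6 higher, and the median was -0.146. It ranged from -0.212 to 0.0919 over the alternatives and turned positive without control pregnant mouse 2 and with array weights, so no direction should be read for this list. Fbln1, a fibulin of elastic fibres (-0.62 ± 0.23), and Tnxb, tenascin X of loose connective tissue (-0.64 ± 0.31), had an unadjusted p below 0.05. Col1a1 and Col3a1, the fibrillar collagens, differed by 0.16 and -0.05. Of 19 genes of vessel growth 15 were lower, with a median of -0.197, and Aplnr, the apelin receptor of sprouting endothelium, was the 1 at that level (-0.70 ± 0.26). Control pregnant mouse 2 had the lowest mean deviation of the matrix list, -0.743, and was also 1 of the 2 mice high in pancreatic acinar genes. Without both of those mice, 249 probe sets had an unadjusted limma p below 0.05.

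Among lists with at least 8 measured genes, the largest medians belonged to smooth muscle, proliferation and lymphocyte genes. By the probe set that represents each gene, none of these lists held a member with an unadjusted p below 0.05. For Ighm, a B cell marker, that probe set gave 0.93. Other probe sets of Ighm gave 2.35 to 2.92, each with an unadjusted limma p below 0.05, and the remaining ones 0.86 and 1.10, without such a p. All 14 smooth muscle and pericyte markers were lower, with a median of -0.767, and their summed intensity was 13450 to 83240 in control pregnant and 28300 to 106400 in the control non pregnant mice. Actg2, Cnn1 and Myh11, contractile proteins of visceral and vascular smooth muscle, differed by -1.06, -1.0 and -0.88. Pdgfrb and Notch3, which mark pericytes, both differed by -0.12. Over the alternatives the smooth muscle median kept its sign but ranged from -1.13 to -0.198. All 11 B cell markers and 11 of 12 T cell markers were higher, with medians of 0.443 and 0.429, and summed B cell markers were 2465 to 28630 against 2736 to 17720. Those medians ranged from 0.0345 to 1.03 and from 0.032 to 0.71 over the alternatives, and without control pregnant mouse 2 they were 0.0362 and 0.0761. All 18 proliferation genes were higher with a median of 0.482, which ranged from 0.199 to 0.667. Top2a, the topoisomerase of dividing cells, was 6.36, 8.50, 6.63, 8.25 and 7.26 in control pregnant mice and 5.91, 6.66, 7.13, 6.66 and 7.30 in control non pregnant mice, high in the same control pregnant mice 2 and 4 as Glycam1. The mean deviation of the proliferation list was highest in control pregnant mice 2 and 4, at 0.922 and 0.669, as was that of B cell markers, at 1.51 and 1.10, and the part of lymphoid tissue in the former was not tested. With the lymphocyte markers of each array as a covariate, the number of probe sets called by limma was 0 again, and 959 had an unadjusted p below 0.05.

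Inflammatory genes gave no direction. Of 16 mediators and chemokines 10 were higher, the median was 0.0677 and none had an unadjusted p below 0.05, and Ccl2, the chemokine that recruits monocytes, differed by 0.08 ± 0.25. Tnf did not pass the filter. Macrophage markers were higher in 18 of 25 with a median of 0.115, Mertk being the 1 member at an unadjusted p below 0.05. Marco, a scavenger receptor of lymph node and marginal zone macrophages, was 6.74, 12.17, 9.06, 12.04 and 11.27 against 7.55, 6.14, 9.77, 9.86 and 11.45 and was highest in the same control pregnant mice as Glycam1. In complement Cfb, factor B of the alternative pathway, was the 1 of 11 (0.46 ± 0.21). None of the 10 neutrophil markers listed passed the filter.

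Single genes of other lists reached an unadjusted limma p below 0.05. Nr1d1, a repressor of the circadian clock, differed by -0.73 ± 0.33, and the hour of sampling is not in the labels. Ifi27l2a, an interferon-induced gene, differed by -0.49 ± 0.21, and Pltp, the phospholipid transfer protein, by -0.37 ± 0.14. Acta1, actin of skeletal muscle, differed by -0.62 ± 0.29, and Lhx8, listed with the markers of brown fat, by 0.59 ± 0.24. Lhx8 was the 1 higher member of that list, at low intensity. The other 6 of the 7 brown fat markers measured were lower, Ppargc1a among them, and the median was -0.428. Of the lists with at least 1 member measured, none held more than 4 members at that level in 1 direction, and none held a called gene.

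**Figure D4:**
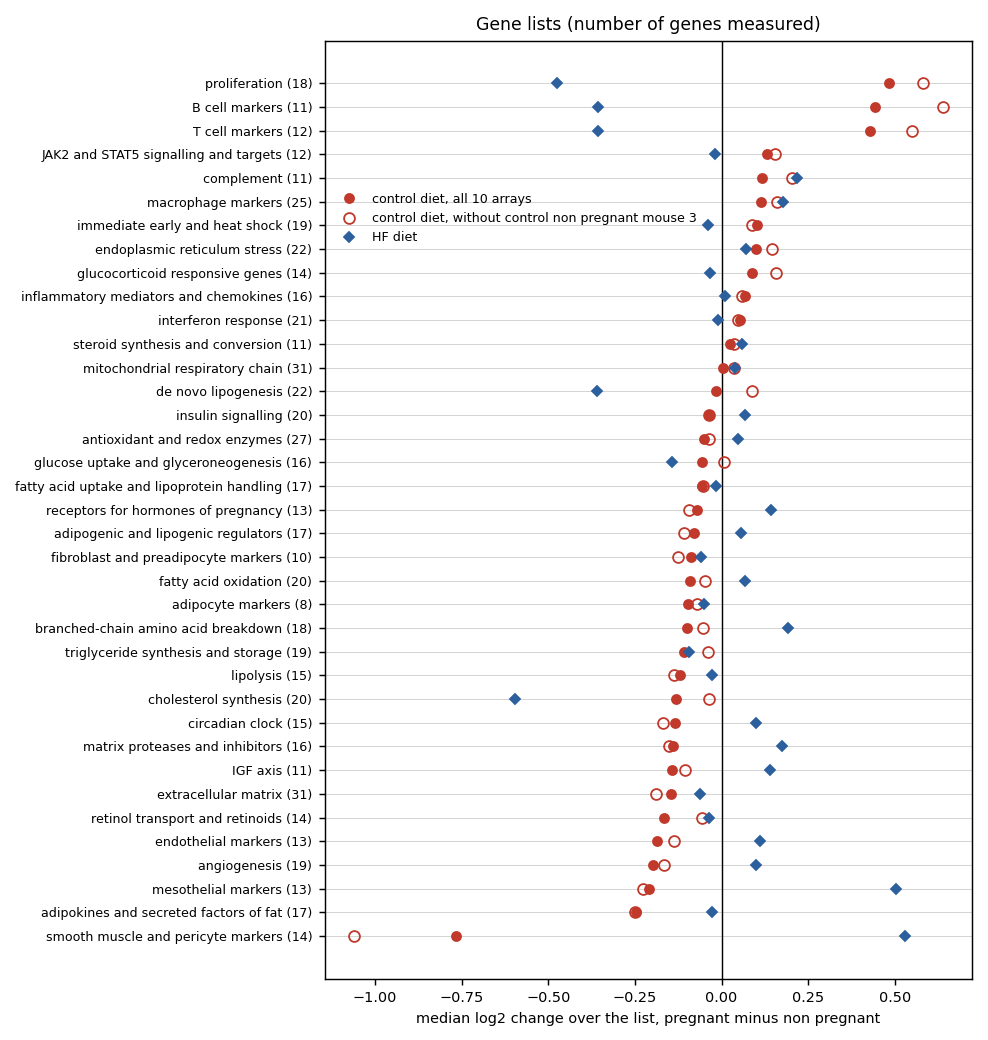
Median log2 change over each gene list with at least 8 measured genes (y axis, number measured in brackets), pregnant minus non pregnant (x axis), on the control diet with all 10 arrays, on the control diet without control non pregnant mouse 3, and on the HF diet. On the control diet the extremes are smooth muscle and pericyte markers at -0.767 and proliferation at 0.482, and without mouse 3 they are smooth muscle and pericyte markers at -1.06 and B cell markers at 0.639.

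Leaving out control non pregnant mouse 3 moved few list medians across 0. Fatty acid synthesis went from -0.0172 to 0.0889 and glucose uptake from -0.0558 to 0.00661. The medians of JAK2 and STAT5 signalling, 0.155, of protein folding in the endoplasmic reticulum, 0.147, and of adipokines, -0.25, kept their sign. Members with an unadjusted p below 0.05 were then 3, 3 and 5 in these lists, where all genes gave 2.73% higher and 4.1% lower.

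The HF arm shows how the same genes behaved in obese mice, and it shares no mouse with the control arm. On the HF diet 265 genes were higher (2.5%) and 192 lower (1.81%) at an unadjusted p below 0.05, and 4 were called by limma (0.0377%): Orm1, Gpx3, Mtarc1 and Igfbp3. Across the 10603 genes the changes on both diets had a Pearson r of -0.14 and a Spearman rho of -0.219, a description across genes, which are not independent and share the cell types of each tissue sample. At an unadjusted p below 0.05 on both diets, 20 genes were higher in both (0.189%), 7 lower in both (0.066%) and 3 opposite.

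Socs2, 1 of the 20, was higher in pregnancy by 1.004 on the control diet and 1.11 on the HF diet, a difference of 0.11 ± 0.38. Cish was higher by 0.63 and 1.09, Xbp1 by 0.31 and 0.39, Mertk by 0.53 and 0.36, and Hs3st3b1 by 1.19 and 0.67. Igfbp3 was higher by 0.86 and 1.72, and its difference between diets of 0.86 ± 0.39 had a 95% interval of 0.044 to 1.67. Dusp4, Grrp1, Lhx8 and Selenos were further members. Rbp4 (-0.63 and -1.43), Rasl12 (-1.09 and -0.80) and Ccn2 (-0.71 and -0.54) were among the 7 lower on both diets. The 3 opposite genes, named after their values were seen, were Gpn2 and Stambpl1, higher on the control diet and lower on the HF diet, and Ube2h, the reverse, all with changes of 0.31 or less in size. The other probe sets of Ube2h gave -0.13 to -0.11 on the control diet, none at an unadjusted limma p below 0.05.

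Of the 4 genes called on the HF diet, Igfbp3 was also on the higher side on the control diet, and for the other 3 the control diet interval included 0. Orm1, an acute phase glycoprotein, was 12.78, 11.24, 12.76, 11.80 and 12.27 in control pregnant mice and 11.36, 11.39, 12.45, 12.24 and 12.36 in control non pregnant mice (0.21 ± 0.38), while it differed by -3.01 on the HF diet. Gpx3, the plasma glutathione peroxidase, differed by 0.18 ± 0.27 on the control diet and 1.98 on the HF diet. Mtarc1, a molybdenum reductase of mitochondria, differed by -0.26 ± 0.48 and -3.42. Fatty acid synthesis had medians of -0.0172 and -0.36 and cholesterol synthesis of -0.132 and -0.596. The tests of the difference between the diets gave 0 calls by limma, with 610 probe sets at an unadjusted p below 0.05. The smallest adjusted p was 0.201, for Orm1, whose difference of -3.21 had a 95% interval of -4.33 to -2.09. The next were Mtarc1 at -3.17 and Gpx3 at 1.80, both with an adjusted limma p of 0.933, as had Elovl6 at -2.81 and Fasn at -1.09.

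**Figure D5:**
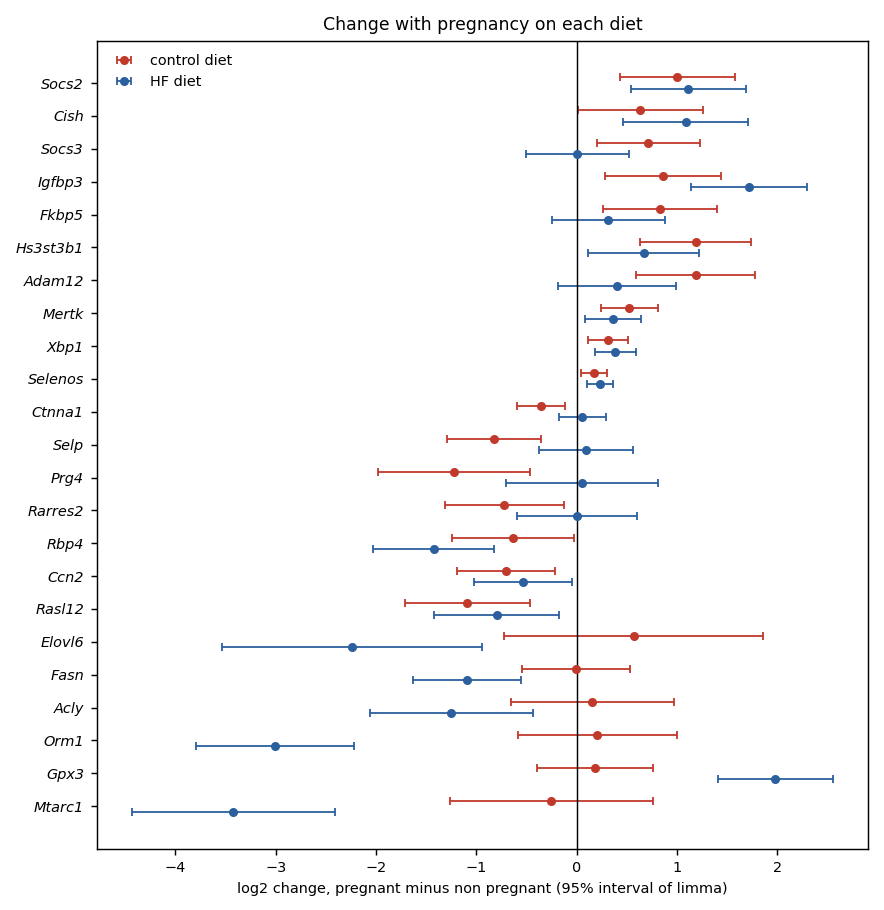
Log2 change with pregnancy (x axis) and its 95% interval from limma for 23 genes (y axis) on the control diet and on the HF diet. Socs2 and Xbp1 lie at nearly the same place on both diets, whereas the intervals of Orm1, Gpx3, Mtarc1, Elovl6, Fasn and Acly include 0 on the control diet and exclude it on the HF diet.

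Unlike Rbp4, Rasl12 and Ccn2, some of the named genes lower on the control diet had HF values close to 0. Selp was -0.83 and 0.10, a difference of 0.92 ± 0.32 (95% interval 0.26 to 1.58), Prg4 was -1.22 and 0.05, a difference of 1.28 ± 0.51, and Ctnna1 was -0.36 and 0.06, a difference of 0.41 ± 0.16. Rarres2 was -0.72 and 0.00. Socs3, higher on the control diet, was 0.715 and 0.01. Each of these differences between diets had an adjusted limma p of 0.933, so none passed the test. On the HF diet Socs3 was 9.16 to 9.74 in non pregnant mice, inside the range of the control pregnant mice.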

How the data were processed

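RNA of visceral fat was hybridised to Affymetrix whole-genome mouse arrays, 1 mouse per array, without pooling. Per the labels RNA was prepared with Trizol, where the study's methods name columns, and no scan date or batch was given. The authors read the scans and normalised them by robust multi-array average with affy under R 2.8.0, and the deposited values are intensities on a linear scale, with array medians of 60.7 to 64.7. This step pulls all arrays to one distribution, so a shift common to most genes cannot be seen. The number of arrays limits the precision. Intensities were brought to the log2 scale with no pseudocount added. The 64 control probe sets were left out, and probe sets above 100 in at least 5 of 20 arrays were kept (19802, of which 17322 carry 1 gene symbol, 531 several and 1949 none, by GEO's platform annotation). A gene was represented by its kept probe set with the highest mean (10603 genes).

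limma 3.58.1 in R 4.3.3 was fitted as 4 group means over the 20 arrays, with default moderation and Benjamini-Hochberg adjustment over the kept probe sets, and was tested on simulated data. Named genes were the 12 of smallest p in each direction, up to 4 members of smallest p per list, and 26 fixed genes. Tsc22d3, Dusp1, Per1, Col1a1, Col3a1, Actg2, Cnn1, Myh11, Pdgfrb and Notch3 were named outside this rule. Others are said in the text to be chosen later. The members and lists were chosen with earlier results of these data known. The lists not described in the text held no member at an unadjusted p below 0.05. Same-numbered arrays were checked for pairing, and their deviations correlated by -0.55 to 0.201, so the numbers were not taken as pairs. Alternatives changed the filter, moderation, weights, scaling, probe set rule, block, covariate and the arrays used. Promoters came from RefSeq for 66 of the 85 genes tried, and Socs2 had no entry.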

Additional observations from a re-analysis of the deposited data

Results flagged for a closer look

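Among 170 groups of 5 mice examined, 5 held a mouse far from the others of its group. Chance alone gives such a mouse in about 1 in 20 groups, so 5 is no more than chance gives. The genes are not independent, and some, such as Mmd2, were named after their values were seen. In 4 of them it was control non pregnant mouse 3, which lay above its group: Adam12 was 8.388 there against 6.866 to 7.216 in the other 4 mice, Cish 8.652 against 7.401 to 7.678, Fkbp5 9.79 against 8.011 to 8.462 and Mmd2 8.748 against 6.016 to 6.362. The last was Spata5 in control pregnant mouse 3, at 7.755 against 7.622 to 7.655.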

How the results depend on the processing

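No probe set passed an adjusted p of 0.05 in 22 of 23 alternatives to the limma fit of the control diet comparison. Array weights gave 4 probe sets, higher for Hs3st3b1, Adam12 and Socs2 and lower for Rasl12, each with a limma adjusted p of 0.04. The weight was 4.449 for control non pregnant mouse 4, against 0.669 to 0.8831 in the rest of its group. For control pregnant mouse 5 it was 2.459, against 0.2327 to 0.7119, and for HF non pregnant mouse 3 it was 11.34. In this fit 1 mouse thus dominated each of these group means, and control non pregnant mouse 4 was also high in pancreatic acinar genes. Of the alternative rules, an unadjusted p below 0.05 with a 1.5-fold change gave 96 and rank product with a 1.5-fold change 516. For the difference between diets the same alternatives gave 2 with array weights and 177 by the rule without adjustment, and the other fits 0. With the replicate number as a block (replicate block) both counts remained 0, with 421 and 428 probe sets at an unadjusted p below 0.05 and a smallest adjusted limma p of 0.995 and 0.873. That count was 575 on the control diet in all arrays and 249 to 2242 over the alternatives. It moved by over 1.5 times without control non pregnant mouse 1 (317), 2 (314), 3 (1301), 4 (323) or 5 (1010) and without control pregnant mouse 1 (1105), and array weights gave the highest. The same held without the 2 arrays high in pancreatic acinar genes (249) and for the control diet arrays alone (377). It also held with lymphocyte markers as a covariate (959) and with no filter (1539 of 45037 probe sets). With the probe sets of a gene averaged the count was 297 of 10603 genes. The cause of these shifts was not tested.

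Of 85 named genes, 73 kept their direction in all alternatives run and 12, all with a change under 0.3 in size, did not. Their log2 change turned with lymphocyte markers as a covariate to 0.01377 for Esr1, 0.04642 for Fasn and 0.03915 for Pck1. Without the 2 arrays high in pancreatic acinar genes it turned to 0.1614 for Esr1, 0.1649 for Lep, -0.02779 for Gpx3, 0.01817 for Mtarc1 and 0.1031 for Fasn. Array weights gave -0.3264 for Me1, -0.3908 for Acly and -0.1486 for Hsd17b12, and repeated quantile normalization -0.01957 for Ghr. Leaving out 1 array at a time gave ranges of -0.3559 to 0.1436 for Esr1, -0.1078 to 0.2101 for Ghr, -0.5069 to 0.1383 for Lep, -0.02549 to 0.3303 for Gpx3, -0.5167 to 0.01354 for Mtarc1, -0.1192 to 0.0913 for Fasn, -0.1304 to 0.318 for Me1, -0.1571 to 0.385 for Acly, -0.08685 to 0.2106 for Hsd17b12, -0.04577 to 0.2662 for Ccl2, -0.216 to 0.06117 for Pck1 and -0.1584 to 0.2305 for Pnpla2. No direction should be read for these 12. Of 46 list medians, 25 changed sign under at least 1 alternative, most often without control pregnant mouse 2 (14) and without the 2 arrays high in pancreatic acinar genes (11), and 3 moved by more than the spread between mice, for the IGF axis, endoplasmic reticulum and mast cell lists. The fit of the control diet arrays alone could give no difference between diets. The probe sets cannot show a change smaller than their error, and signals near the top of the scale may be compressed.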
